A study of Homo sapiens with 6 samples.

Results

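The MLL/COMPASS complexes place methyl groups on lysine 4 of histone H3 (H3K4) at promoters and enhancers. They were represented here by 10 genes, found by symbol among the 35474 genes listed in the deposited count table. The 10 genes are KMT2A, KMT2B, KMT2C, KMT2D and SETD1A, which encode catalytic subunits, WDR5, RBBP5, ASH2L and DPY30, which encode the shared WRAD core, and MEN1, which encodes menin. They were chosen by name and not by a rule on measured values, though earlier results of these data were known. All 10 passed the filter on low counts. RNA was sequenced from A549 cells, an established human lung adenocarcinoma line, that had received siRNA against BAP18 (siBAP18, 3 libraries) or a non-specific siRNA (siCtrl, 3 libraries), and all cells were collected 48 h after transfection. BAP18 is a chromatin protein encoded by C17orf49 and known from the NURF remodelling complex and from MLL1 complexes. All 6 libraries come from this 1 cell line, and the libraries of a group are biological replicates per the labels.

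Methylation of H3K4 is carried out by a SET domain that works only weakly alone and is stimulated by the WRAD subunits. Trimethylation (H3K4me3) marks active promoters, and monomethylation marks enhancers. KMT2A (MLL1) and KMT2B (MLL2) form complexes with menin at selected promoters, HOX genes among them. KMT2C (MLL3) and KMT2D (MLL4) act mainly at enhancers, and SETD1A, with its paralog SETD1B, is responsible for much of the H3K4me3 at promoters. In lung and other epithelial cancers KMT2C and KMT2D are often mutated, and menin is a tumour suppressor in endocrine tissue.

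The targeted transcript was low in every siBAP18 library. C17orf49 was measured at 14.0, 16.1 and 15.1 CPM (the count relative to the library's total after edgeR's TMM scaling) in siCtrl replicates 1, 2 and 3, and at 2.21, 2.35 and 2.66 CPM in siBAP18 replicates 1, 2 and 3. It fell by 2.65 on the log2 scale (SE 0.111, adjusted p = 7.31e-16, edgeR quasi-likelihood test with Benjamini-Hochberg adjustment over all 20776 genes tested). Total counts ranged from 46035635 to 53657450 in siCtrl and from 42094524 to 56548620 in siBAP18. The A549 and epithelial markers were present, with all 11 at 60.9 CPM or more in every library. Their summed level was 41301 to 43349.5 CPM in siCtrl and 29145 to 33296 CPM in siBAP18. At an adjusted p under 0.05, 9 of the 11 fell and 1 rose, where 25.1% of all genes tested fell and 24.5% rose. Of 12 markers of leukocytes, endothelium, fibroblasts and differentiated lung epithelium, 8 had a row in the table. None of these 8 exceeded 1.29 CPM in any library and none was at 0 in all of them, and their summed level was 2.01 to 2.15 CPM in siCtrl and 1.39 to 1.70 CPM in siBAP18. All 8 proliferation markers examined (MKI67, TOP2A, PCNA, MCM2, MCM6, CCNA2, CCNB1 and BUB1) fell, with a median log2 fold change of -0.86, and their part in the changes below was not tested. Mitochondrial transcripts took 6.86 to 7.43% of the counts in siCtrl and 5.27 to 6.14% in siBAP18. In bulk RNA, fewer cells of a type and less RNA per cell cannot be told apart.

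Among the MLL/COMPASS genes the response was small and divided by subunit. KMT2B and SETD1A rose 1.34-fold and 1.29-fold, WDR5 and ASH2L fell by 15.7% and 16.1%, and the other 6 genes did not pass the test. Thus 2 of 10 rose and 2 of 10 fell at an adjusted p under 0.05, where over all genes tested 24.5% rose and 25.1% fell, or 49.6% in either direction. The members were therefore called no more often than genes in general. None of the 10 also passed an absolute log2 fold change of 1, a pair of thresholds that 8.46% of all genes met. The median log2 fold change was -0.0033 for the 10 genes and 0.0010 for all genes tested.

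**Figure D1:**
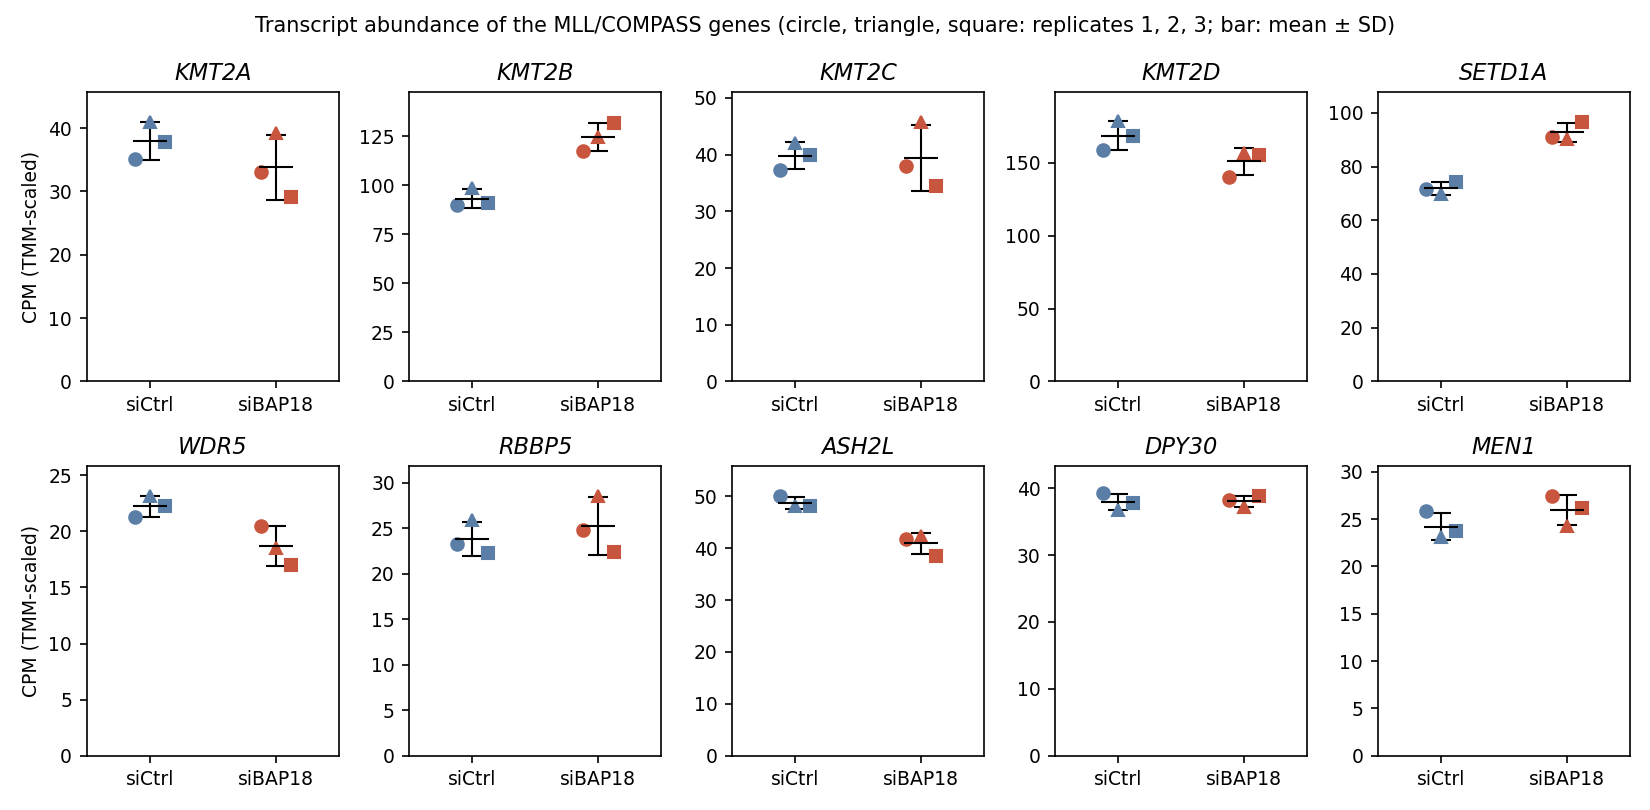
Level of each of the 10 genes in TMM-scaled CPM (vertical axes, from 0) in the siCtrl and siBAP18 libraries. Symbols are single libraries and bars the mean ± SD of 3. The siBAP18 libraries lie above all siCtrl libraries for KMT2B and SETD1A and below them for KMT2D, WDR5 and ASH2L, and the groups overlap for the other 5 genes.

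The sequences around the transcription start are shown for the 2 genes that rose and for WDR5, which fell. These are the members that passed the test and had a promoter window, whereas ASH2L, which also fell, had none. RefSeq promoter windows, 250 bases before to 50 after the start on GRCh38.p14, were matched for 8 members, and there was no entry for ASH2L or DPY30. Each is given 5′ to 3′ on the gene's strand with CpG dinucleotides in capitals.
KMT2B, chr19:35717753-35718052, plus strand: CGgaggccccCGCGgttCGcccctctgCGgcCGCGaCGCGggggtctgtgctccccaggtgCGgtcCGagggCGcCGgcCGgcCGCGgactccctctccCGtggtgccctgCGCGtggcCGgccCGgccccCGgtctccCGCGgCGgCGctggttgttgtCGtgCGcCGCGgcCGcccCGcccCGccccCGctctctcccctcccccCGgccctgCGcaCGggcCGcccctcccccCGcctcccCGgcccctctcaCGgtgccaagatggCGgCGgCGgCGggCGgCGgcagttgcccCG
SETD1A, chr16:30957504-30957803, plus strand: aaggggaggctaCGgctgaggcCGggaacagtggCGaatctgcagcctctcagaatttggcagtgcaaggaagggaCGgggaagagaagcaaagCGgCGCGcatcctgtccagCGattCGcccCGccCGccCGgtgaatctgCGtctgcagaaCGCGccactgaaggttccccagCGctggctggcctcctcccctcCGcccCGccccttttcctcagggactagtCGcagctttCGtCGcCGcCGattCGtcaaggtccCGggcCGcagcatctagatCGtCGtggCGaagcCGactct
WDR5, chr9:134135127-134135426, plus strand: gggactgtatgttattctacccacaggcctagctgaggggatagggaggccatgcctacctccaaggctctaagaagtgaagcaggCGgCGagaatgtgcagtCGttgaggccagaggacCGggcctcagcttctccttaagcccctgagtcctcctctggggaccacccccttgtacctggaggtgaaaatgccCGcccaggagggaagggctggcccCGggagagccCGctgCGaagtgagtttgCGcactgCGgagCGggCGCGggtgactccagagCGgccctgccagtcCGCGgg

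The KMT2B window held 48 CpG dinucleotides with a GC content of 83.3%, the SETD1A window 30 with 65.0%, and the WDR5 window 16 with 64.3%. Over all 35116 promoter windows the median was 14 CpG dinucleotides and a GC content of 58.7%, and 22.4% of windows held 30 or more. The GC box letters GGGCGG, searched on both strands, occurred 5 times in KMT2B, 4 times in SETD1A and 1 time in WDR5, and 45.0% of all windows held at least 1. A CpG-rich start was not limited to the genes that rose, because KMT2C, which did not pass the test, held 56 CpG dinucleotides and 15 GC boxes. KMT2A held 36 CpG dinucleotides, KMT2D 27, MEN1 20 and RBBP5 18. WDR5 had 4 starts in the RefSeq table and MEN1 had 2, of which 1 was used for each. The SETD1A window lies downstream of the start at 30957294 that the count table gives. The MEN1 window likewise lies downstream of its counted start at 64811294, and the KMT2D window lies upstream of its counted start at 49059774. These counts describe the letters in the windows and no binding was measured.

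KMT2B, the MLL2 methyltransferase (chr19:35718019-35738878, plus strand), was the member with the smallest adjusted p. It was measured at 90.0, 98.7 and 90.8 CPM in siCtrl replicates 1, 2 and 3, and at 117.5, 124.4 and 132.0 CPM in siBAP18 replicates 1, 2 and 3. All siBAP18 libraries lay above all siCtrl libraries. The means were 93.2 ± 4.84 and 124.6 ± 7.23 CPM (SD, n = 3), a log2 fold change of 0.42 (SE 0.0685, 95% interval 0.28 to 0.56, adjusted p = 1.41e-05, edgeR). The last exon of KMT2B shares 78 bases with IGFLR1, a receptor gene on the opposite strand, so reads there can be told apart only by strand. The libraries were strand-specific per the labels, and whether the counting used strand is not given in the sources used here. IGFLR1 had only 46 to 113 counts per library against 4244 to 7263 for KMT2B, and its log2 fold change of -0.83 passed the test (adjusted p = 0.00122, edgeR).

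SETD1A, catalytic subunit of one of the SET1 complexes (chr16:30957294-30985116, plus strand), also rose. Its levels were 71.6, 69.7 and 74.3 CPM in siCtrl and 91.1, 90.4 and 96.6 CPM in siBAP18, without overlap. The log2 fold change was 0.37 (SE 0.0659, 95% interval 0.23 to 0.50, adjusted p = 4.77e-05, edgeR). Its paralog SETD1B went the other way, from 37.4 to 31.8 CPM on average, and fell by 0.24 (adjusted p = 0.00567, edgeR). The opposite-strand transcript RP11-1072A3.3, which shares 487 exonic bases with SETD1A, did not pass, at a log2 fold change of -0.098 (adjusted p = 0.475).

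KMT2D, the MLL4 enhancer methyltransferase (chr12:49018975-49059774, minus strand), had the most counts of the 10 genes. It was measured at 159.1, 178.7 and 168.4 CPM in siCtrl and at 140.5, 156.8 and 155.7 CPM in siBAP18. The groups did not overlap, yet the log2 fold change of -0.16 (SE 0.0691, 95% interval -0.30 to -0.018) did not pass the test (adjusted p = 0.0573, edgeR). Without siBAP18 replicate 2 the adjusted p was 0.0169, and without siBAP18 replicate 3 it was 0.0121. It was 0.292 without siBAP18 replicate 1, and 0.0558, 0.264 and 0.135 without siCtrl replicates 1, 2 and 3. PRKAG1, an AMPK subunit gene on the same strand, shares 223 exonic bases with KMT2D, and PRKAG1, at 0.15 on the log2 scale, did not pass (adjusted p = 0.0981). On the opposite strand RP11-386G11.5 shares 261 bases, with a log2 fold change of 0.12 (adjusted p = 0.358).

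KMT2A, the MLL1 methyltransferase (chr11:118436490-118526832, plus strand), differed more between siBAP18 libraries than between groups. Its levels were 35.1, 40.9 and 37.9 CPM in siCtrl and 33.0, 39.3 and 29.2 CPM in siBAP18. Replicate 2 of siBAP18 lay within the siCtrl range and the other siBAP18 libraries lay below it. The log2 fold change was -0.16 (SE 0.0877, 95% interval -0.34 to 0.018, adjusted p = 0.128, edgeR). Without siBAP18 replicate 2 it was -0.28 with an adjusted p of 0.00216. Without siBAP18 replicate 3 it was -0.067 (adjusted p = 0.476), and without siCtrl replicate 2 it was -0.11 (adjusted p = 0.423). The value thus depended on single libraries in both directions. An opposite-strand transcript that shares 357 exonic bases, RP11-770J1.3, did not pass, at a log2 fold change of -0.23 (adjusted p = 0.353).

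KMT2C, the MLL3 methyltransferase (chr7:152134922-152436005, minus strand), did not pass the test. It was measured at 37.3, 42.1 and 39.9 CPM in siCtrl and at 38.1, 45.8 and 34.4 CPM in siBAP18. The siBAP18 group held both the highest and the lowest library. The log2 fold change was -0.010 (SE 0.0851, adjusted p = 0.929, edgeR), and its 95% interval of -0.19 to 0.16 leaves room for a change of that size in either direction. Leaving out single libraries moved the value between -0.13 and 0.079. Parts of KMT2C have near-identical copies elsewhere in the genome, and its counts are uncertain to the extent that reads were shared with them.

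The WRAD genes encode the subunits that all these methyltransferases share. WDR5, a WD40-repeat protein that contacts the methyltransferase (chr9:134135365-134159968, plus strand), was measured at 21.3, 23.2 and 22.2 CPM in siCtrl and at 20.5, 18.5 and 17.05 CPM in siBAP18. Every siBAP18 library was below every siCtrl library, although siBAP18 replicate 1 was close to siCtrl replicate 1. WDR5 fell by 0.25 on the log2 scale (SE 0.0803, 95% interval -0.41 to -0.081, adjusted p = 0.0128, edgeR). The call was lost without siCtrl replicate 2 (log2 fold change -0.22, adjusted p = 0.0705). It was also lost with limma on log2(RPKM + 1), where the log2 fold change was -0.21 and the adjusted p 0.0600. A short opposite-strand transcript at its first exon, LL09NC01-251B2.3, had 13 to 24 counts per library and a log2 fold change of -0.21 (adjusted p = 0.690).

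ASH2L, on chromosome 8, encodes the subunit that binds DPY30 and stimulates catalysis with RBBP5. Its levels were 50.2, 48.1 and 48.2 CPM in siCtrl and 41.8, 42.4 and 38.6 CPM in siBAP18. The groups did not overlap, and the 3 siCtrl libraries lay close together. ASH2L fell by 0.25 on the log2 scale (SE 0.0685, 95% interval -0.39 to -0.11, adjusted p = 0.00328, edgeR). STAR, the opposite-strand neighbour with which it shares 338 exonic bases, had at most 8 counts in any library and was not tested.

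RBBP5 and DPY30, the remaining core genes, did not pass the test. RBBP5, whose protein bridges WDR5 and ASH2L (chr1:205086142-205122015, minus strand), was measured at 23.3, 25.9 and 22.3 CPM in siCtrl and at 24.8, 28.6 and 22.3 CPM in siBAP18, with a log2 fold change of 0.086 (95% interval -0.091 to 0.26, adjusted p = 0.431, edgeR). The groups overlapped, with siBAP18 replicate 2 the highest library. DPY30, which binds ASH2L (chr2:31867809-32039812, minus strand), was measured at 39.2, 36.8 and 37.8 CPM in siCtrl and at 38.2, 37.2 and 38.8 CPM in siBAP18, with a log2 fold change of 0.0040 (95% interval -0.14 to 0.14, adjusted p = 0.967, edgeR). All 6 DPY30 libraries lay within a narrow range. MEMO1, on the same strand, shares 1385 of the 2745 bases counted for DPY30, so that reads in these exons cannot be assigned to one gene by strand. MEMO1 rose by 0.23 (adjusted p = 0.0461, edgeR), a call that was lost in 10 of 18 alternative settings.

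MEN1 encodes menin, the scaffold that tethers MLL1 and MLL2 complexes to chromatin (chr11:64803510-64811294, minus strand). It was measured at 25.9, 23.1 and 23.7 CPM in siCtrl and at 27.5, 24.3 and 26.2 CPM in siBAP18. The groups overlapped, and the log2 fold change of 0.10 (SE 0.0757, 95% interval -0.055 to 0.26) did not pass the test (adjusted p = 0.284, edgeR).

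**Figure D2:**
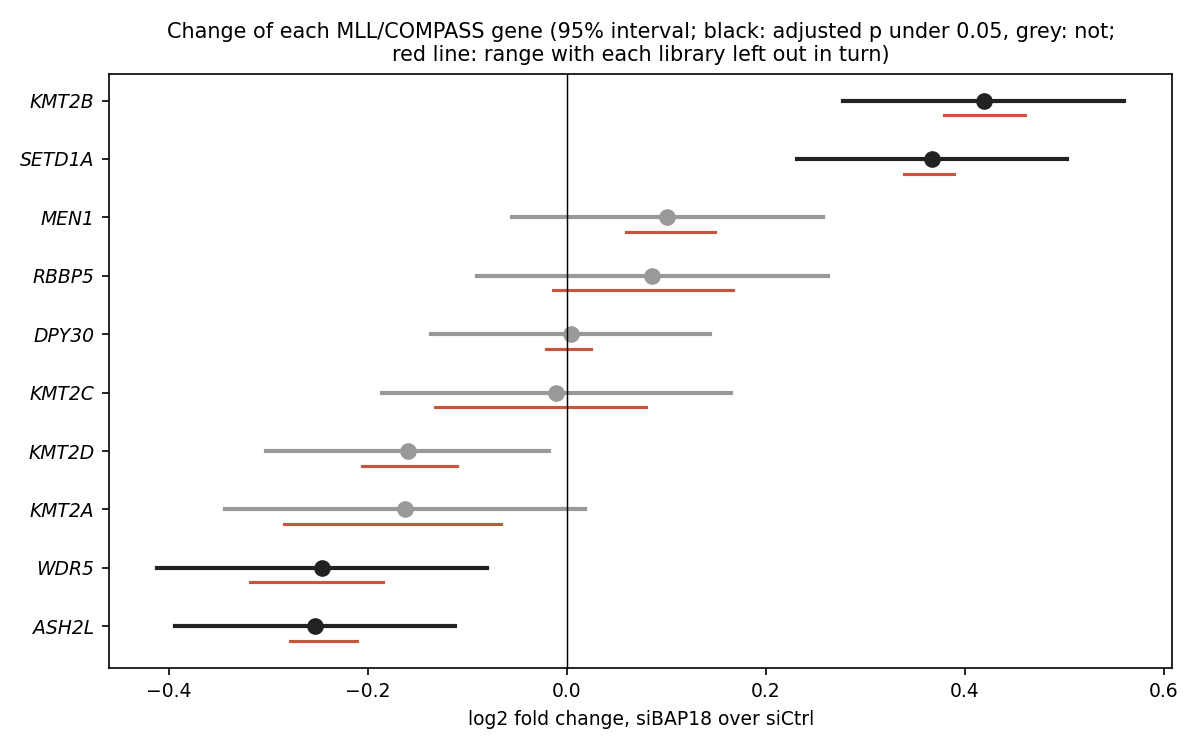
Log2 fold change of each gene, siBAP18 over siCtrl (horizontal axis), with its 95% interval from the edgeR fit in black where the adjusted p was under 0.05 and in grey where it was not, and the range with each library left out in turn in red. KMT2B (0.42) and SETD1A (0.37) lie to the right of 0 and WDR5 and ASH2L (both -0.25) to the left, while the red ranges of RBBP5, DPY30 and KMT2C cross 0.

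Libraries of siBAP18 and siCtrl did not overlap for 5 of the 10 members (KMT2B and SETD1A above, KMT2D, WDR5 and ASH2L below), and for 56.6% of all genes tested. The spread within siBAP18 was uneven among members, and over all genes tested the siBAP18 libraries differed more than the siCtrl libraries. Between pairs of libraries the chi-square per degree of freedom of the counts was 4.13 to 4.79 in siCtrl and 11.1 to 25.7 in siBAP18. It was highest between siBAP18 replicates 2 and 3. The coefficient of variation was 15.1% for KMT2A, 14.8% for KMT2C and 12.5% for RBBP5 in siBAP18, against 7.71%, 6.06% and 7.79% in siCtrl. For these 3 genes and for ASH2L, siBAP18 replicate 2 was the highest and replicate 3 the lowest library of its group. DPY30 and SETD1A varied least in siBAP18, by 2.14% and 3.66%. Counting error was smaller than these values for most genes, since the 10 genes had between 691 and 9156 counts per library, for which it is 3.80% and 1.05% of the count.

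Per base of transcript, the core subunits were not equally abundant and the methyltransferases spanned a wide range. On the deposited RPKM scale, which divides by gene length, DPY30 was the most abundant member in siCtrl at 13.8 ± 0.333 RPKM (SD, n = 3), followed by SETD1A at 10.4 ± 0.255 and KMT2B at 9.05 ± 0.569. The ranges of ASH2L (8.24 ± 0.163) and KMT2D (8.23 ± 0.561) overlapped. Below KMT2D and apart from it came WDR5 (6.11 ± 0.316), MEN1 (5.69 ± 0.302) and RBBP5 (5.41 ± 0.479), where WDR5 overlapped MEN1 and MEN1 overlapped RBBP5. KMT2C (1.98 ± 0.139) and KMT2A (1.73 ± 0.150) were the lowest and overlapped, 2.74-fold and more below RBBP5. The DPY30 level includes exons shared with MEMO1.

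In siBAP18 the first positions were the same and their distances were not. DPY30 stood at 13.9 ± 0.229 RPKM, SETD1A at 13.4 ± 0.113 and KMT2B at 12.1 ± 0.529. The gap between DPY30 and SETD1A was 1.33-fold in siCtrl and 1.03-fold in siBAP18. KMT2D followed at 7.38 ± 0.498 RPKM, and from there through ASH2L, MEN1 and RBBP5 to WDR5 (5.17 ± 0.596) each neighbouring pair overlapped. WDR5 thus held rank 6 in siCtrl and rank 8 in siBAP18, within a run of genes whose ranges overlapped.

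**Figure D3:**
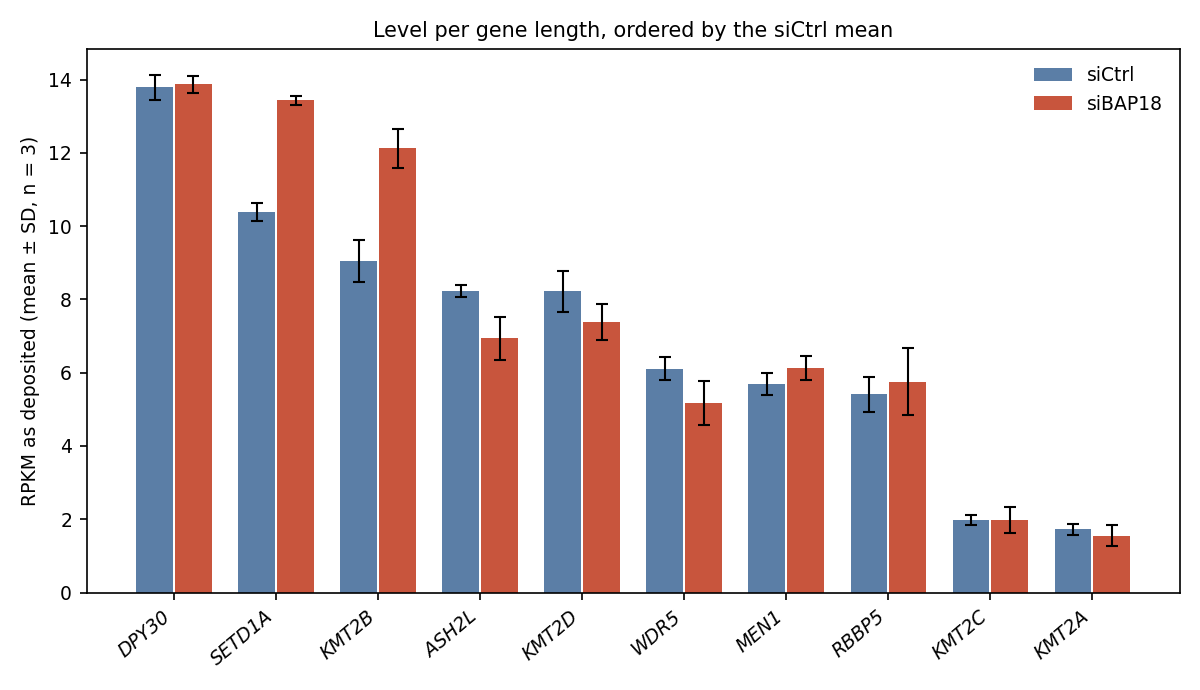
Level of each gene per length in RPKM as deposited (vertical axis, from 0), mean ± SD of 3 libraries, ordered by the siCtrl mean. SETD1A rose from 10.4 to 13.4 and KMT2B from 9.05 to 12.1 RPKM, while the means of KMT2C and KMT2A were below 2 RPKM in both groups.

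The 5 methyltransferases summed to 31.4 ± 1.32 RPKM in siCtrl and 36.5 ± 1.51 RPKM in siBAP18. Of this sum SETD1A made up 33.2% in siCtrl and 36.9% in siBAP18, KMT2B 28.8% and 33.3%, and KMT2D 26.2% and 20.2%. KMT2A took 5.50% and 4.23% and KMT2C 6.29% and 5.39%. These shares concern transcripts and not proteins, and were not tested. Within each library, the ratio of KMT2A to KMT2B was 0.182, 0.194 and 0.195 in siCtrl and 0.132, 0.148 and 0.103 in siBAP18. The log2 ratio was -2.39 ± 0.0541 in siCtrl and -2.99 ± 0.263 in siBAP18, a difference of -0.59 with all siBAP18 libraries lower (two-sided exact permutation p = 0.1, adjusted p = 0.2 over 2 ratios, with 0.1 the smallest p that 3 against 3 libraries allow). For KMT2C to KMT2D the log2 ratio was -2.06 ± 0.0078 in siCtrl and -1.92 ± 0.209 in siBAP18 (exact permutation p = 0.4). Replicates 1 and 2 of siBAP18 were above the siCtrl ratios and replicate 3 was below them.

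The genes most like KMT2B in profile over the 6 libraries were TBC1D25, HIP1R and NAB2. The measure was the root mean square difference of log2 CPM after subtracting each gene's siCtrl mean, which was 0.0198, 0.0262 and 0.0263, the smallest among 14221 genes compared. Their log2 fold changes were 0.45, 0.42 and 0.41. Values near that of KMT2B follow from the measure, because only the siCtrl mean was subtracted. TBC1D25 is a Rab GTPase-activating protein, HIP1R a clathrin-associated protein and NAB2 a corepressor of EGR factors.

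A siRNA can act on other transcripts through its seed, so the 3′UTRs of the members were searched for the 7 letters that pair with guide bases 2 to 8 of each siRNA named in the study's methods. The letters were AATCACA for the first BAP18 siRNA of the methods, AAGATTC for the next, ACTCAAC for the last and TGTCACG for the control siRNA. Which of the BAP18 siRNAs was transfected for sequencing is not given in the sources used here. Only KMT2C held any of them, those of the first siRNA, at base 219 of its 1907-base 3′UTR, shown here with these letters in capitals.
KMT2C: aggttaaacggAATCACAgaatggtccagc
KMT2C did not pass the test (log2 fold change -0.010). Over 13737 tested genes with an annotated 3′UTR, 14.0%, 11.1%, 6.78% and 3.00% held the respective letters. WDR5 and ASH2L, the members that fell, held none of the 4. Only the longest 3′UTR annotated by GENCODE 29 was searched per gene. Whether any siRNA acted through its seed was not tested.

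The remaining COMPASS subunits, each belonging to only some of the complexes, moved in both directions. Of 12 tested, 5 fell, 3 rose and 4 did not pass, where over all genes tested 25.1% fell and 24.5% rose. The median log2 fold change was -9.27e-05. PSIP1, which encodes LEDGF, the chromatin tether of the menin and MLL1 complex, fell most, from 381.9, 377.1 and 407.3 CPM in siCtrl to 181.8, 183.7 and 206.1 CPM in siBAP18. Its level was lower in each siBAP18 library than in any siCtrl library, and it fell by 1.03 on the log2 scale (SE 0.0695, adjusted p = 6.81e-12, edgeR). It was the only gene of the list past a log2 fold change of 1 in either direction, and at -0.997 without siCtrl replicate 3 and -0.996 without siBAP18 replicate 1 it was no longer so. BOD1L1, a SETD1A partner at replication forks, fell by 0.47 (adjusted p = 1.40e-06), and BOD1 rose by 0.48 (adjusted p = 1.12e-06). Among the subunits particular to MLL3 and MLL4, PAGR1 rose by 0.37 (adjusted p = 5.25e-05), while PAXIP1 and NCOA6 fell by 0.25 and 0.22 and KDM6A, the H3K27 demethylase of these complexes, had a log2 fold change of 0.20 that did not pass (adjusted p = 0.147, all edgeR). PAXIP1, NCOA6 and KDM6A were named after their values were seen.

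Among 22 proteins that copurify with MLL1 and WDR5, 8 rose, 5 fell and 9 did not pass, with a median log2 fold change of 0.027. The shares over all genes tested were 24.5% that rose and 25.1% that fell. PRPF31, a splicing factor, rose by 0.53 (adjusted p = 1.25e-06, edgeR), from 537.3 to 560.4 CPM over the siCtrl libraries to 737.6 CPM or more in siBAP18. RUVBL2, an AAA+ ATPase, rose by 0.52 (adjusted p = 2.39e-06), whereas its partner RUVBL1 fell by 0.23 (adjusted p = 0.00481). PELP1, a nuclear receptor coregulator, rose by 0.47 (adjusted p = 0.000125). Its siBAP18 replicate 3 stood at 261.9 CPM, against 193.6 and 184.5 CPM in siBAP18 replicates 1 and 2. With single libraries left out the PELP1 value ranged from 0.30 to 0.57. TAF1, the largest TFIID subunit, fell by 0.35 (adjusted p = 0.000204).

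The enzymes that remove H3K4 methylation did not share a direction. Of 7 listed genes, RIOX1 had no row in the count table, and of the 6 tested 3 rose and 2 fell. Over all genes tested the shares were 24.5% and 25.1%. KDM2B, a demethylase that binds CpG-rich DNA, had the largest change, from 20.2, 22.6 and 20.5 CPM in siCtrl to 41.5, 43.7 and 41.3 CPM in siBAP18, a log2 fold change of 1.00 (SE 0.0727, adjusted p = 2.48e-11, edgeR). Every siBAP18 library lay above every siCtrl library, and without siCtrl replicate 1 the log2 fold change was 0.96. KDM5C rose by 0.30 (adjusted p = 0.000682) and KDM5A by 0.22 (adjusted p = 0.0242), and both belong to the family that removes H3K4me3. The KDM5A call was lost without siCtrl replicate 1 (adjusted p = 0.132), without siCtrl replicate 3 (adjusted p = 0.0914) and without siBAP18 replicate 2 (adjusted p = 0.182). KDM5B, of the same family, did not pass, at a log2 fold change of 0.15 (adjusted p = 0.106). The LSD1 gene KDM1A fell by 0.28 (adjusted p = 0.000838) and its paralog KDM1B by 0.47 (adjusted p = 3.41e-05, all edgeR), and both act on mono- and dimethylated H3K4.

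Of 17 genes for proteins that bind H3K4me3, 6 rose, 2 fell and 9 did not pass, with a median log2 fold change of 0.15. Among all genes tested 24.5% rose and 25.1% fell. The 2 that fell encode chromatin remodellers. CHD1 fell by 0.55 (adjusted p = 2.97e-07), and BPTF, the NURF subunit for which BAP18 is named, fell by 0.48 (adjusted p = 2.80e-06). SGF29, the SAGA subunit that reads the mark, rose by 0.50 (adjusted p = 2.28e-05). PHF8, a demethylase recruited through H3K4me3, rose by 0.22 (adjusted p = 0.0123, all edgeR), a call lost without siCtrl replicate 1 (adjusted p = 0.0734). Without siCtrl replicate 1, and likewise without siCtrl replicate 3, 2 of the 17 rose.

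**Figure D4:**
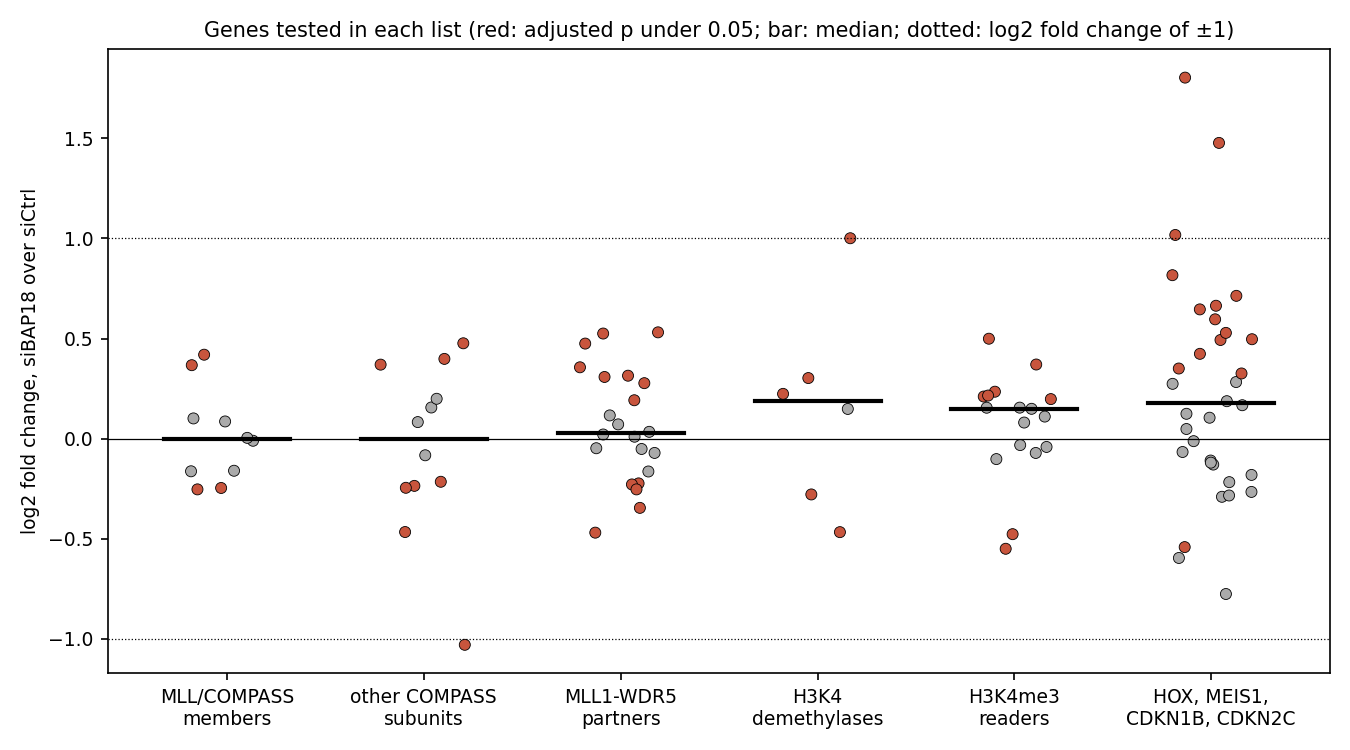
Log2 fold change, siBAP18 over siCtrl (vertical axis), of every tested gene in the MLL/COMPASS set and in 5 surrounding lists. Points are genes, red where the edgeR adjusted p was under 0.05 and grey where not, black bars are medians and dotted lines mark a log2 fold change of 1 in either direction. The 10 members lie between -0.25 and 0.42, and the HOX list reaches from -0.78 to 1.80. These ends are HOXC11 and HOXD11, both with 32 counts or fewer in every library, and HOXC11 did not pass the test.

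HOX genes are the best known targets of the MLL1 and menin complexes, which maintain their expression. The 39 HOX genes were listed with MEIS1, CDKN1B and CDKN2C, other targets of these complexes. Of these 42 genes 39 had a row and 34 were tested, of which 14 rose, 1 fell and 19 did not pass, with a median log2 fold change of 0.18. Over all genes tested 24.5% rose and 25.1% fell. Where offsets for gene length and GC content were added, 9 rose and 5 fell, though GC content was known for too few genes (79.2% of those tested) for that correction to count as a check. The HOX genes themselves were expressed at 0.120 to 66.0 CPM in siCtrl, and 18 of the 31 tested were under 3 CPM.

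The genes that rose came mainly from the HOXA and HOXC clusters. In HOXC 5 of 8 tested genes rose and none fell, in HOXA 5 of 11 rose and 1 fell, in HOXB 1 of 9 rose and none fell, and in HOXD 2 of 3 rose and none fell. HOXC10, a posterior patterning factor, was measured at 2.16, 2.37 and 2.70 CPM in siCtrl and at 7.75, 6.25 and 6.02 CPM in siBAP18. All siBAP18 libraries exceeded all siCtrl libraries, and the log2 fold change was 1.48 (SE 0.137, adjusted p = 2.05e-09, edgeR). HOXC9 rose by 0.65 (adjusted p = 3.76e-07), HOXC6 by 0.82 (adjusted p = 1.66e-06) and HOXA7 by 0.71 (adjusted p = 2.13e-05, all edgeR). These 4 calls held in all 18 alternatives, among which are the offsets that do not count as a check. The gene that fell was HOXA13, with a log2 fold change of -0.54 (adjusted p = 0.0324, edgeR), named here after its value was seen. The count of HOX list genes that fell was 0 without siCtrl replicate 2 or without siBAP18 replicate 2, and 2 without siCtrl replicate 1 or without siBAP18 replicate 1.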

How the data were processed

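The authors deposited counts per gene, whole numbers without normalization, and RPKM values for the 6 poly(A)-selected, strand-specific A549 libraries. The RPKM values equal the count divided by listed gene length and by the library's total. The submitters' processing notes name hg38 and also GRCm38, and the aligner, the counting program and its use of strand are not given in the sources used here. Listed positions were read as hg38, since 22909 genes have the same span in GENCODE 29.

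Counts passing filterByExpr (20776 genes) were scaled by TMM and tested with edgeR 4.0.16's quasi-likelihood test (R 4.3.3), with Benjamini-Hochberg adjustment over all genes tested and SE as the log2 fold change over the square root of F. On simulated data with 200 changed genes among 20776, 183 were found, with 10 others. Detection of differences as small as those of the members was not tested separately. Detection where 49.6% of genes pass, as in these libraries, was not tested. Alternatives used DESeq2 1.42.0, limma 3.58.1 with pseudocounts of 1 and 0.1, other scalings and filters, a replicate block and single libraries left out. After subtracting group means, siCtrl and siBAP18 libraries of the same number correlated over genes at 0.0512, 0.161 and 0.0654. Other pairs were not compared, so whether replicate numbers pair the libraries was not settled. No libraries were copies. Floors and counting errors cover counting error only.

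The members and lists were chosen with earlier results of these data known. Named were all members, C17orf49, genes sharing exons with a member, up to 4 genes per list by adjusted p (all of a list with 8 or fewer tested) and the 3 genes most like the member with the smallest adjusted p.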

Additional observations from a re-analysis of the deposited data

How the results depend on the processing

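KMT2B, SETD1A and ASH2L passed the test with the same direction in all 18 alternatives. The alternatives counted here include the offsets for gene length and GC content, a check called void below. Over the 10 members and these alternatives, 157 of 180 values kept their direction and side of the threshold, 4 lost the call (all WDR5), 9 gained one and 10 changed sign. No alternative moved the median of all genes by more than 0.1 on the log2 scale.

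The count of members that fell was 1 in each limma fit and 4 with a replicate block, where KMT2A (adjusted p = 0.0393) and KMT2D (adjusted p = 0.0191) joined. It ranged from 1 to 4 with single libraries left out. Whether the numbers pair the libraries was not tested, so the block describes only a shared number. KMT2D also passed with no filter (adjusted p = 0.0416). The offsets for gene length and GC content rested on GC values for 16463 of 20776 genes (79.2%, under the 80% needed), so that check is void. With them 4 members rose, with RBBP5 at 0.17 and DPY30 at 0.20, while KMT2C was 0.14, MEN1 -0.021 and RP11-386G11.5 -0.0098. Without a filter DPY30 was -0.011. Leaving out single libraries gave -0.13 to 0.079 for KMT2C, -0.014 to 0.17 for RBBP5, -0.021 to 0.024 for DPY30 and -0.20 to 0.036 for RP11-1072A3.3, all on the log2 scale. The cause was not tested.

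Other COMPASS subunits that rose numbered 5 with the offsets and 3 to 5 with single libraries left out. With limma and no filter, 3 partners of MLL1 and WDR5 fell and 5 rose, and 2 readers of H3K4me3 rose. With the offsets 4 readers fell, and with single libraries left out 2 to 6 rose. HOX list genes that fell numbered 0 with DESeq2 and with limma without a filter, 4 with edgeR's likelihood ratio test, 2 with at least 10 counts in every library, 2 with a replicate block, 5 with the offsets and 0 to 2 with single libraries left out. HOX list genes that rose numbered 9 with the offsets.

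With 3 libraries per group, the 95% intervals of the members were 0.27 to 0.36 wide on the log2 scale.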
